A study of Mus musculus with 4 samples.

Results

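Prostanoids and bradykinin are mediators of inflammation that act on sensory nerve endings through G protein-coupled receptors, and the genes for 10 of these receptors were followed in sorted cells of mouse dorsal root ganglia. The 10 were taken by symbol: Ptger1, Ptger2, Ptger3 and Ptger4 for prostaglandin E2, Ptgdr for prostaglandin D2, Ptgfr for prostaglandin F2alpha, Ptgir for prostacyclin, Tbxa2r for thromboxane A2, and Bdkrb1 and Bdkrb2 for kinins. All 10 were found among the 41388 genes listed.

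The RNA came from EGFP-positive cells isolated by flow cytometry from pooled ganglia (T11-S1) of C57BL/6 mice that carried an EGFP reporter of Ret, the receptor tyrosine kinase for ligands of the GDNF family. There was 1 female library (female A, 40 ganglia) and 3 male libraries (male A, male B and male C, 20 ganglia each). By the labels each came from 1 animal, but female A had 40 ganglia from the range that gave 20 per male. The number of animals in female A is therefore uncertain. All the libraries were labelled postnatal day 2. The labels of pool size and treatment differed, however: they call the source of female A and of male A a P2 mouse (here the P2-mouse pair) and that of males B and C an embryo (the embryo pair). Both pairs carried the reporter, which the genotype label writes as a transgene, Tg(Ret-EGFP)SJ/, and the design text describes as EGFP inserted at the Ret locus in heterozygotes. Only cells with Ret reporter activity were collected, and no EGFP-negative cells are analysed here. Whether the pool descriptions mark a difference of age, of colony, of handling or of processing batch cannot be told apart.

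In textbook accounts, prostaglandin synthases make short-lived lipids that act close to where they are made. The receptors for prostacyclin and prostaglandin D2 and the EP2 and EP4 receptors couple to Gs and raise cyclic AMP. The EP3 receptor couples mainly to Gi, and the EP1, FP and TP receptors act mainly through Gq and phospholipase C, as do the B1 and B2 bradykinin receptors. In nociceptors, protein kinases A and C downstream of these receptors sensitise channels such as TRPV1 and the tetrodotoxin-resistant sodium channels. The B2 receptor is known as the constitutive kinin receptor and the B1 receptor as the one induced by injury.

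Gene counts summed to between 17388493 and 28066448 per library, and 3 counts corresponded to between 0.107 and 0.173 CPM, the count scaled to a fixed total of gene counts. No molecular identifiers were used, so floors cover counting error only. The libraries with the same pool description resembled each other most. Across 13490 genes, which are not independent replicates, log2 CPM correlated at 0.991 between female A and male A and at 0.986 between male B and male C, but at 0.933 to 0.943 between the pairs. Of the markers of sensory neurons, 10 of 10 were detected in every library, and they summed to 8236 CPM in female A and 7836 CPM in male A, against 13489 CPM in male B and 12582 CPM in male C. Of these 10 markers, 6 were called lower and 1 higher in the P2-mouse pair by the edgeR test used below, with a median log2 fold change of -0.52. That test called 20.0% of all genes tested lower and 22.3% higher. Tubb3, a neuronal tubulin gene, held the largest part of the gap between the sums, at 2039 and 1849 CPM in the P2-mouse pair, against 5515 and 5189 CPM in the embryo pair. The glutamate transporter gene Slc17a6 was the marker called higher (log2 fold change 0.26, edgeR adjusted p = 0.0339), while Isl1 (0.23) and Elavl4 (-0.01) did not pass.

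Markers of other cells also differed between the pairs, in a test that called 22.3% of all genes tested higher and 20.0% lower. The 9 Schwann cell markers summed to 4794 and 7648 CPM in the P2-mouse pair, against 2986 and 2997 CPM in the embryo pair. Most of these sums was Pmp22, the marker that was not called. The other 8 were called higher, with a median log2 fold change of 2.37 over all 9, and Egr2, a myelination factor gene, stood at 93.6 and 137 CPM in the P2-mouse pair, against 8.65 and 15.7 CPM in the embryo pair. For 6 fibroblast markers the sums were 1374 and 1515 CPM in the P2-mouse pair, against 295 and 318 CPM in the embryo pair, and 5 of the 6 were called higher (median log2 fold change 2.37). None of the markers on these 2 lists was at 0 in any library. Erythroid markers (3 genes, 2 called higher) summed to 31.8 and 42.6 CPM in the P2-mouse pair, against 12.9 and 3.98 CPM in the embryo pair. Of 9 tested endothelial and mural markers 4 were called higher (Cdh5, Kdr, Flt1 and Tek, by 1.76 to 3.43 on the log2 scale) and 1 lower. The list's sums were alike, 105 and 103 CPM in the P2-mouse pair, against 102 and 93.5 CPM in the embryo pair. Most of each sum was Rgs5, which was not called (59.3 and 71.4 CPM, against 64.7 and 58.4 CPM). The sums therefore say little about the markers that were called. Of 5 satellite glia markers, Kcnj10 was called higher (log2 fold change 2.20) and Fabp7 (-1.30) and Glul (-0.59) lower. Macrophage markers (6 genes) summed to between 1.20 and 3.97 CPM, and platelet markers (4 genes) to between 0.713 and 2.56 CPM, with Gp9 at 0 in every library. In bulk samples like these, fewer cells of a type and less RNA per cell cannot be told apart.

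The upstream sequences of 3 receptor genes are shown for reference, and no expression result rests on them. The genes were chosen by their results: Ptgir and Ptgfr were the only receptor genes called between the pairs in the test described below, and Ptgdr was second in level without a call. RefSeq promoter entries (GRCm38.p6) matched 8 of the 10 genes by symbol, and up to 250 bases upstream of the annotated start are given on the gene's own strand. The windows are chr7:16906240-16906489 (plus strand) for Ptgir, chr3:151837631-151837778 (minus strand) for Ptgfr and chr14:44859376-44859625 (minus strand) for Ptgdr. For Ptgfr only 148 bases are shown, because the next 102 lie inside the exon of the deposited gene model. Capitals mark GC boxes (GGGCGG on either strand).
Ptgir: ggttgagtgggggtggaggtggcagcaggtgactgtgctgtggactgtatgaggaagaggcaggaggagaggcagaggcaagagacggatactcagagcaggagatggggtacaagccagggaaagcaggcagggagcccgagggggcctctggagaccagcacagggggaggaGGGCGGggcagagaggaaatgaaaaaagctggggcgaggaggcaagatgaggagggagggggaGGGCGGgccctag
Ptgfr: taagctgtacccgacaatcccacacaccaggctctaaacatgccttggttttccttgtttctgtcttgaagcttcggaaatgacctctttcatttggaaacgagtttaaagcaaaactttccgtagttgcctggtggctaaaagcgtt
Ptgdr: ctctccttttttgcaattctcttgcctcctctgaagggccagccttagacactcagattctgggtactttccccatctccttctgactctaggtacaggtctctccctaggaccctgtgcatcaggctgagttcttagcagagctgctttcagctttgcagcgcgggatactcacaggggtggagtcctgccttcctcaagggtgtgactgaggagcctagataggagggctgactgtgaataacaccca
The Ptgir window held 2 GC boxes, whose first bases lie at -76 and -13 from the start, and was 63.6% G or C. GC boxes also occurred upstream of Ptger3 and Ptger4, which the test described below did not call. The Ptgfr window was 43.9% G or C and the Ptgdr window 53.2%, and neither held a GC box. Over all 32851 promoters of the table, the median was 52.4% G or C (quartiles 45.2% and 61.2%), and 32.7% held a GC box within 250 bases. On both strands, none of the 3 windows held TATAA (22.8% of all promoters), the cyclic AMP response half-site TGACG (17.8%), the AP-1 site TGANTCA (6.75%) or the RUNX site TGTGGT (14.0%). The E-box CANNTG, which 66.2% of all promoters hold, occurred once in the Ptgir and once in the Ptgfr window. These are matches of letters only, and neither a match nor its absence in such a window shows whether a factor binds. The shares of all promoters are over 250 bases, whereas the Ptgfr window holds 148 and lacks the 102 nearest its annotated start. Motifs absent from the Ptgfr window are therefore not directly comparable with these shares.

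The receptors spanned a wide range of level, and Ptgir led them. Levels between genes are compared as RPKM, which is CPM per kilobase of exon. Ptgir, the gene of the prostacyclin receptor (ENSMUSG00000043017, chr7:16906490-16910905, plus strand), stood at 10.1 and 7.88 RPKM in female A and male A, against 15.4 and 17.3 RPKM in males B and C. Its mean was 12.7 ± 4.42 RPKM (SD, n = 4 libraries), above 74.8% of the 15568 genes that passed the filter on low counts. It was the highest of the 10 receptors in every library.

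Ptgdr, the gene of the DP1 receptor for prostaglandin D2 (ENSMUSG00000071489, chr14:44851235-44859375, minus strand), came second in every library. Its values were 4.42 and 7.47 RPKM in female A and male A, against 4.39 and 6.53 RPKM in males B and C, a mean of 5.70 ± 1.55 RPKM. Together Ptgir and Ptgdr made up 78.3% and 80.9% of the summed RPKM of the 8 prostanoid receptors in the P2-mouse pair, and 81.2% and 83.8% in the embryo pair. Of the exon bases of Ptgdr, 22.1% overlap the antisense gene Gm16976, which had 5 to 20 counts per library, and 24.2% of its 50-base words also occur in other annotated transcripts. The sources used here do not give the strand setting of the counting, so reads of such a pair cannot be told apart.

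**Figure D1:**
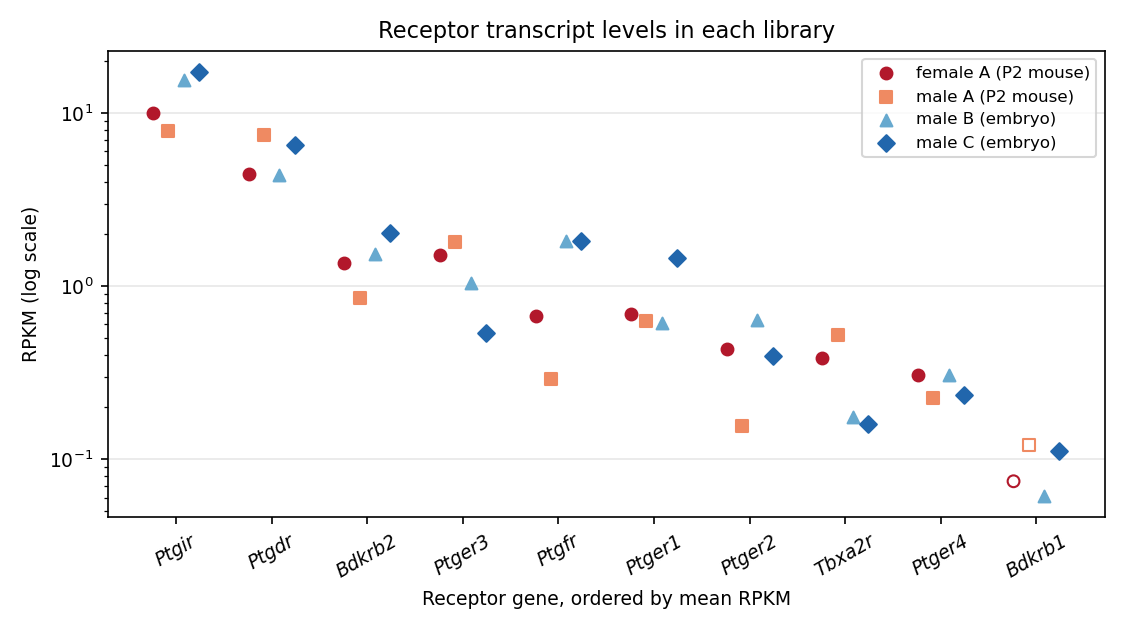
Level of each receptor gene in the 4 libraries, as deposited RPKM on a log axis, with genes ordered by their mean over the libraries. Ptgir and Ptgdr lie above the other 8 genes in every library, and open markers show Bdkrb1 at 0 counts in female A and male A, drawn at the level that 3 counts would give.

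Below these, 4 genes lay close together. Bdkrb2, the B2 bradykinin receptor gene (ENSMUSG00000021070, chr12:105563172-105593071, plus strand), stood at 1.36, 0.856, 1.52 and 2.03 RPKM in female A, male A, male B and male C, a mean of 1.44 ± 0.485 RPKM. Ptger3, the gene of the EP3 receptor (ENSMUSG00000040016, chr3:157566892-157644758, plus strand), stood at 1.52, 1.80, 1.05 and 0.534 RPKM in the same libraries, a mean of 1.23 ± 0.557 RPKM. Ptgfr, the gene of the FP receptor (ENSMUSG00000028036, chr3:151798918-151837630, minus strand), stood at 0.670, 0.290, 1.81 and 1.81 RPKM, a mean of 1.15 ± 0.785 RPKM. The mean differences between neighbours in this group were smaller than their SD, so their order is not settled, and each stood above the next in only 2 of 4 libraries. Ptger1, the gene of the EP1 receptor (ENSMUSG00000019464, chr8:83666833-83672753, plus strand), had a mean of 0.845 ± 0.405 RPKM, with male C at 1.45 and the other libraries between 0.614 and 0.690. Its value is uncertain, since 63.3% of its 50-base words occur in other annotated transcripts.

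The remaining genes were detected at low level. Ptger2, the gene of the EP2 receptor (ENSMUSG00000037759, chr14:44988195-45003820, plus strand), had a mean of 0.405 ± 0.196 RPKM. Tbxa2r, the thromboxane receptor gene (ENSMUSG00000034881, chr10:81328732-81335171, plus strand), had a mean of 0.310 ± 0.174 RPKM. Ptger4, the gene of the EP4 receptor (ENSMUSG00000039942, chr15:5206661-5244187, minus strand), had a mean of 0.268 ± 0.0436 RPKM and the narrowest range of the 10 relative to its mean, 0.225 to 0.305 RPKM. These 3 neighbours did not differ beyond their SD. Of the Ptger4 exon bases, 16.5% overlap the genes Ttc33 and Gm15937 on the other strand, and Ttc33 itself stood at 67.1 to 86.6 CPM.

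Bdkrb1, the B1 bradykinin receptor gene (ENSMUSG00000041347, chr12:105603085-105605428, plus strand), was at or near the limit of detection. It had 0 counts in female A and in male A, which allows up to 0.107 and 0.173 CPM, against 2 counts in male B and 4 in male C. Detection of this gene in both embryo libraries therefore rests on 6 counts in all, fewer than the filter requires, so it entered no test and no fold is given. The B2 receptor gene was the higher of the bradykinin receptor genes in every library.

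Grouped by coupling, the Gs-linked receptors Ptgir, Ptgdr, Ptger2 and Ptger4 summed to 15.2 and 15.7 RPKM in the P2-mouse pair, against 20.8 and 24.4 RPKM in the embryo pair. That was 82.3% and 82.9% of all prostanoid receptor RPKM in the P2-mouse pair, and 85.1% and 86.1% in the embryo pair. The Gq-linked receptors Ptger1, Ptgfr and Tbxa2r held 9.43% and 7.58% in the P2-mouse pair, against 10.6% and 12.1% in the embryo pair. Ptger3, linked to Gi, held 8.23% and 9.49% in the P2-mouse pair, against 4.29% and 1.88% in the embryo pair. In each library the Gs-linked share thus stood far above the others, and most of it was Ptgir and Ptgdr.

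The comparison of the pairs asked which receptors differed with the pool description. Ptgir and Ptgfr were lower in the P2-mouse pair, and no receptor was called higher. Ptgir had 942 counts (33.6 CPM) in female A and 457 counts (26.3 CPM) in male A, against 1167 counts (51.5 CPM) in male B and 1434 counts (57.6 CPM) in male C. Both P2-mouse libraries lay below both embryo libraries. In the edgeR quasi-likelihood test, Ptgir was 1.97-fold lower in the P2-mouse pair (log2 fold change -0.98, SE 0.15, adjusted p = 0.00184).

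Ptgfr showed the widest gap of the receptors. It had 82 counts (2.92 CPM) in female A and 22 counts (1.27 CPM) in male A, against 179 counts (7.90 CPM) in male B and 197 counts (7.91 CPM) in male C. The embryo libraries stood almost level with each other, and both P2-mouse libraries lay below them. Ptgfr was 3.96-fold lower in the P2-mouse pair (log2 fold change -1.99, SE 0.37, edgeR adjusted p = 0.00418). Both genes stayed past the threshold of 0.05 in every alternative run, with log2 fold changes from -0.72 to -1.16 for Ptgir and from -1.55 to -2.74 for Ptgfr. Of the markers given above, 6 of 10 for sensory neurons were also called lower in the P2-mouse pair and 1 higher, and 8 of 9 for Schwann cells and 5 of 6 for fibroblasts were called higher. The shares of all genes tested were 20.0% called lower and 22.3% called higher. The part of these markers in the receptor differences was not tested.

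Ptgdr gave no difference between the pairs on average, with a spread inside each pair instead. It stood at 14.1 CPM in female A and 23.8 CPM in male A, against 14.0 CPM in male B and 20.8 CPM in male C. The pairs overlapped, and the log2 fold change was 0.00 (SE 0.29, edgeR adjusted p = 0.996). Its sign changed with 7 of the alternatives, and it was called in none.

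**Figure D2:**
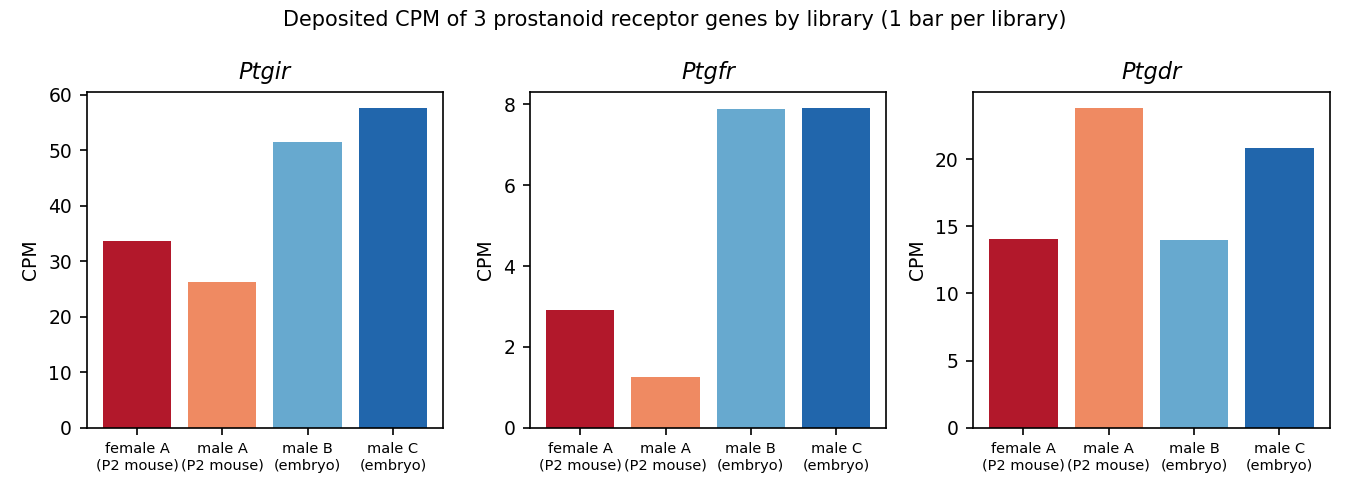
Deposited CPM of Ptgir, Ptgfr and Ptgdr in each library, with bars from 0 and the P2-mouse pair to the left of the embryo pair. For Ptgir and Ptgfr both P2-mouse bars are lower than both embryo bars, whereas the Ptgdr bars of the pairs overlap.

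Of the 10 receptors, 9 passed the filter, and 2 of these (22.2%) were called, both lower. This test called 42.3% of the 15568 genes tested, 22.3% higher and 20.0% lower, so the share of receptors called lower was close to that of all genes. The median log2 fold change of the 9 receptors was -0.76, and that of all genes tested was 0.02. In 5 of the 9 the pairs did not overlap in CPM, 3 with the P2-mouse pair lower (Ptgir, Ptgfr and Bdkrb2) and 2 with it higher (Ptger3 and Tbxa2r). Over all genes tested the pairs did not overlap in 73.3%, with 30.8% lower and 42.5% higher. The number of genes called, 6584, was 4036 without female A and 3616 without male A. With sex as a term it was 3679.

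The other 7 receptors did not pass the test. Ptger3 had 90 counts (3.21 CPM) in female A and 66 counts (3.80 CPM) in male A, against 50 counts (2.21 CPM) in male B and 28 counts (1.12 CPM) in male C. Tbxa2r had 19 and 16 counts in the P2-mouse pair, against 7 in each embryo library. These were the receptors with positive log2 fold changes of some size, 0.96 for Ptger3 (SE 0.41, edgeR adjusted p = 0.100) and 1.29 for Tbxa2r (SE 0.58, edgeR adjusted p = 0.112). Bdkrb2 stood at 2.28 and 1.44 CPM in the P2-mouse pair, against 2.56 and 3.41 CPM in the embryo pair (log2 fold change -0.78, SE 0.38, edgeR adjusted p = 0.140).

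Ptger1, Ptger2 and Ptger4 overlapped between the pairs. Ptger1 had 96 and 54 counts in the P2-mouse pair, against 69 and 179 in the embryo pair, so that male C stood apart from the other libraries. Ptger2 had 45 and 10 counts in the P2-mouse pair, against 53 and 36 in the embryo pair. Ptger4 had 57 and 26 counts (2.03 and 1.5 CPM) in the P2-mouse pair, against 46 and 39 counts (2.03 and 1.57 CPM) in the embryo pair, which is nearly the same spread in both. Their log2 fold changes were -0.76, -0.86 and -0.13, with edgeR adjusted p of 0.175, 0.249 and 0.822. Without male B, Ptger1 (log2 fold change -1.26, edgeR adjusted p = 0.00575) and Ptger3 (1.5, edgeR adjusted p = 0.0210) were also called. Without male C they were not, at -0.05 and 0.50, so these values depend on single libraries of the embryo pair.

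**Figure D3:**
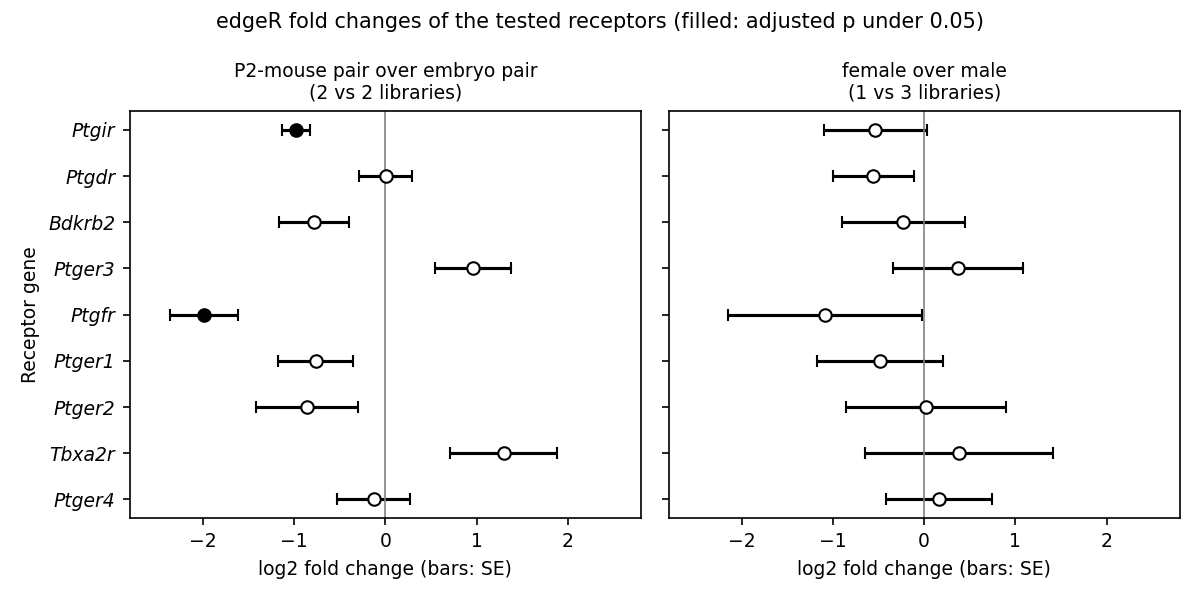
Log2 fold change of the 9 tested receptors with its standard error, for the P2-mouse pair over the embryo pair and for female over male. Filled markers are the genes called at an adjusted p of 0.05, which are Ptgir and Ptgfr between the pairs and none between the sexes.

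The comparison of the female with the 3 males, which the series title names, called none of the receptors. Of 9 tested, 0 passed the edgeR test, 0 had an unadjusted p under 0.05, and DESeq2 and limma-voom also called 0. The background was the same, with 0% of the 16708 genes called by edgeR and 129 at an unadjusted p under 0.05. Adjusted p-values of the receptors lay between 0.951 and 0.996. With 1 female library the spread came from the males alone, and it included the difference between the pool descriptions.

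Ptgfr had the largest difference in size, with 2.92 CPM in female A, against a mean of 5.69 ± 3.83 CPM over the males (SD, n = 3). Its log2 fold change was -1.08 (SE 1.06). Ptgir had 33.6 CPM in female A, against a mean of 45.1 ± 16.6 CPM over the males, a log2 fold change of -0.53 (SE 0.56). For both the female lay inside the range of the males, between male A and the other males. Within the P2-mouse pair the signs were the other way: once the pool description was added to the fit, the log2 fold change was 1.18 for Ptgfr and 0.33 for Ptgir, and neither was called. Without male A, which leaves the female against the embryo pair, both were called lower in the female (edgeR adjusted p = 0.0226 for Ptgfr and 0.0245 for Ptgir), so these calls cannot be told apart from the pool description. For Ptgdr, the female stood at 14.1 CPM and the males at 19.5 ± 5.03 CPM (log2 fold change -0.56, SE 0.44).

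For the other 6 receptors the log2 fold changes of female over male lay between -0.48 (Ptger1) and 0.38 (Tbxa2r), each smaller than its SE. The female lay outside the range of the males for 1 of the 9, Ptger4, against 45.1% of all genes tested. Even there, the female and male B both had 2.03 CPM when rounded. Counts were also simulated for the same libraries, with the same relative spread for every gene and no difference between the pool descriptions. Of the genes changed there, all above a minimum count, 0% at a fold of 2 and 4% at a fold of 4 were recovered. Differences of the sizes seen could therefore be missed. Between the pairs, the same kind of simulation recovered 66% and 100%. These shares do not give the power for single receptors, whose counts and spread differ from those simulated.

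The genes around the receptors were described from lists of their pathways. Of the 10 genes of prostanoid synthesis 9 were tested, of which the P2-mouse pair had 1 higher and 1 lower, beside 42.3% of all genes called. The median log2 fold change of the list was -0.41, against 0.02 over all genes tested. Pla2g4a, the gene of cytosolic phospholipase A2, which frees arachidonic acid, had 50 and 40 counts in the P2-mouse pair, against 6 and 3 in the embryo pair. It rose in the P2-mouse pair by 3.27 on the log2 scale (SE 0.60, edgeR adjusted p = 0.00392), by 2.58 with offsets for GC content and length and by 3.89 without male B. Ptges3, which encodes a co-chaperone with prostaglandin E synthase activity, was the most abundant of the list at a mean of 216 RPKM and was lower in the P2-mouse pair (log2 fold change -0.75, edgeR adjusted p = 0.000838, and -1.34 with these offsets). Of its 50-base words, 19.6% occur in other annotated transcripts. The cyclooxygenase genes were scarce. Ptgs1 had 9 to 18 counts per library, and Ptgs2 had 27 and 20 counts in the P2-mouse pair, against 8 and 0 in the embryo pair (edgeR adjusted p = 0.0797, and called without male B). No filter gave 5 calls on this list and limma-voom 4.

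Of the 4 genes of prostanoid clearance none was called, beside 42.3% of all genes. Ptgr1, a prostaglandin reductase gene, was the most abundant at a mean of 3.11 RPKM. Ptgdr2, which encodes the other receptor for prostaglandin D2, had 1, 0, 0 and 1 counts in female A, male A, male B and male C and was not tested. Ptgdr, by contrast, had between 317 and 518 counts per library.

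In the kinin system 8 of 9 listed genes were found, and 5 were tested, with 1 higher and 1 lower, beside 42.3% of all genes called. Mme, the gene of neprilysin, a peptidase that degrades kinins, stood at 3.15 and 4.73 RPKM in the P2-mouse pair, against 1.12 and 1.00 RPKM in the embryo pair (log2 fold change 1.77, SE 0.26, edgeR adjusted p = 0.00137, and 1.13 with the offsets). Cpn1, the gene of the catalytic subunit of carboxypeptidase N, was lower (log2 fold change -1.53, edgeR adjusted p = 0.00877), but without male A it was not called (-1.23, edgeR adjusted p = 0.0625). The kininogen genes Kng1 and Kng2, which encode the precursors of bradykinin, had at most 12 counts in any library.

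Among 28 genes of G proteins, adenylyl cyclases, phospholipase C and kinases, 27 were tested, of which the P2-mouse pair had 9 higher and 7 lower, with a median log2 fold change of 0.11, beside 42.3% of all genes called. The split turned to 7 higher and 8 lower with RLE size factors, with DESeq2 and without male C. It was 4 higher and 6 lower with offsets for GC content and length (median -0.16), 3 and 5 with sex as a term or without female A, and 4 and 5 without male A. Gnai3, a Gi alpha subunit gene, rose by 1.06 on the log2 scale (SE 0.10, edgeR adjusted p = 0.000246), and by 0.37 with the offsets. Prkar1b and Prkaca, genes of a regulatory and a catalytic subunit of protein kinase A, were lower (log2 fold changes -1.14 and -0.92, edgeR adjusted p = 0.000194 and 0.00116), as was the adenylyl cyclase gene Adcy5 (-0.79, edgeR adjusted p = 0.00346). Prkar1a was the most abundant gene of the list at a mean of 284 RPKM and did not pass the test (log2 fold change -0.04, edgeR adjusted p = 0.786), though without male B it did, at -0.21.

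Plcb2 and Gnas were called on few counts. Plcb2, a phospholipase C gene, had 18 and 10 counts in the P2-mouse pair, against 0 in both embryo libraries, and was at least 9.77-fold higher in the P2-mouse pair against a floor of 3 counts over the embryo pair (edgeR adjusted p = 0.00542). It was not called with sex as a term or without male A, and did not pass the filter without female A. Gnas, the gene of the Gs alpha subunit, had 91 and 79 counts in the P2-mouse pair, against 36 and 43 in the embryo pair (log2 fold change 1.11, edgeR adjusted p = 0.0371). It was called neither by DESeq2, nor with sex as a term, nor with any 1 library left out.

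Of 11 genes of channels that these receptors sensitise, 9 were tested, of which the P2-mouse pair had 1 higher and 3 lower. The median log2 fold change was -0.46, and 42.3% of all genes were called. With offsets for GC content and length 0 were higher and 6 lower (median -0.69), and without male C 1 was higher and 5 lower. Scn9a, the gene of the sodium channel Nav1.7, stood at 691 and 748 CPM in the P2-mouse pair, against 389 and 344 CPM in the embryo pair (log2 fold change 0.86, edgeR adjusted p = 0.000471), but the difference was 0.04 and not called with offsets for GC content and length. P2rx3, the gene of an ATP-gated channel, and Trpv1, the gene of the capsaicin receptor, were lower by similar amounts (log2 fold changes -0.94 and -0.92, edgeR adjusted p = 0.000249 and 0.000905). Scn10a, the gene of the sodium channel Nav1.8, was the most abundant of the list at a mean of 124 RPKM and was lower by less (log2 fold change -0.46, edgeR adjusted p = 0.00437). Without male A it was not called (-0.38). Between the sexes, 0 genes of these 6 lists were called by edgeR.

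**Figure D4:**
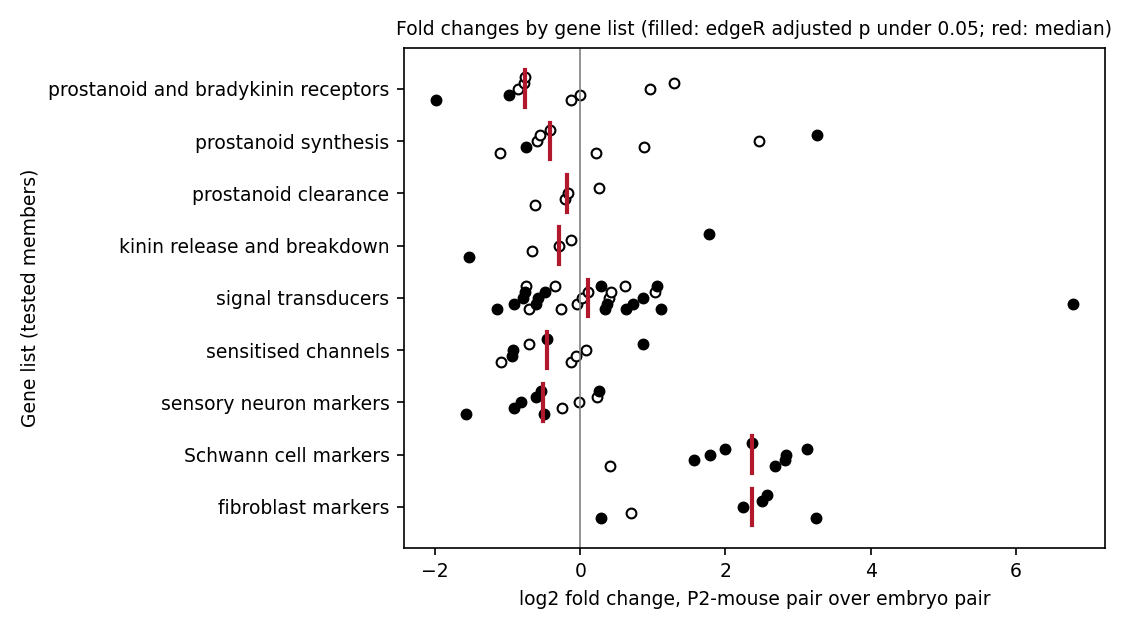
Log2 fold change of the P2-mouse pair over the embryo pair for each tested gene of the receptor set and the pathway lists, 1 point per gene, with the median of each list in red. The receptor median is -0.76 and the channel median -0.46, and the point far above the others among the signal transducers is Plcb2, whose fitted value rests on 0 counts in the embryo pair and depends on the fit's prior.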

How the data were processed

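RNA was measured in 1 female and 3 male libraries, made from 10 ng of RNA each over 12 PCR cycles per the labels' protocols. The authors deposited read counts per gene, for which the submitters' processing notes name featureCounts 1.4.5 (Subread) and the build GRCm38.p2. The authors' deposited CPM values are the counts scaled to a fixed total of gene counts, and their deposited RPKM values are the CPM per kilobase of exon length, as recomputed from the counts. The sources used here give neither the aligner nor the strand setting. Symbols were found for 40254 of 41388 genes (97.3%).

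Counts were tested with the edgeR 4.0.16 quasi-likelihood test in R 4.3.3, after TMM scaling. Genes were kept by filterByExpr with a minimum of 10 counts and a total of 15, and p-values were adjusted by Benjamini-Hochberg over all genes tested, with a threshold of 0.05. It was fitted for the female against the males and for the pair described as P2 mouse against the pair described as embryo. The labels name the libraries as separate samples, each from 1 animal (uncertain for female A), and p-values measure the spread between these libraries. Within the P2-mouse pair that spread includes any difference between the female and the male, whereas both libraries of the embryo pair are male. In the comparison of the sexes it comes from the males alone. SE is the size of the log2 fold change over the square root of F. Alternatives were RLE size factors, a filter on the mean (1 CPM) in place of filterByExpr, no filter, DESeq2 1.42.0, limma-voom (limma 3.58.1), offsets for GC content and length (mgcv 1.9.3), a term for the pool description or for sex, and leaving out each library in turn. For the pathway lists all of these were added after the data were seen. Both fits were tested on simulated counts (100 genes changed per fold), drawn with the same relative spread for every gene. In these, 0 unchanged genes were called for the sexes and 6 for the pairs.

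The members and gene lists were chosen with earlier results of these data known. Named genes are all 10 receptors and, of each pathway list, the most abundant gene by RPKM and up to 3 per direction with the largest called changes. Ptgs1, Ptgs2, Ptgdr2, Kng1 and Kng2 were named for their role after their values were seen.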

Additional observations from a re-analysis of the deposited data

How the results depend on the processing

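Between the pairs, Ptgir and Ptgfr were called lower under every alternative run. Receptors called numbered 2, and 4 with no filter (Ptger1 and Ptger3 added), with a range of 2 to 4 when a library was left out. Genes called numbered 6584, against 3679 with sex as a term and a range of 3616 to 6926 with a library left out. GC and length offsets turned the split of 3472 higher and 3112 lower into 1934 and 3173, with the median of all genes at -0.08. The cause was not tested. Between the sexes, genes called numbered 0, against 2 with no filter, 5 with DESeq2, 4 with GC and length offsets, 4 with a term for the pool description and 5 to 3616 with a male left out. Receptors called then ranged from 0 to 2. Without male A the female faces the embryo pair alone.

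No called receptor changed sign between the pairs. Ptgdr gave -0.0061 with RLE size factors, -0.012 with no filter, -0.0024 with DESeq2, -0.090 with limma-voom and -0.29 with the offsets, and ranged from -0.43 to 0.35 with a library left out. Ptger4 then ranged from -0.36 to 0.059. Between the sexes, with a term for the pool description, Ptger1 gave 0.12, Ptger3 -0.26, Ptgfr 1.18, Ptgir 0.33, Tbxa2r -0.46 and Bdkrb2 0.64. With the offsets, Ptger2 gave -0.14, Ptger4 -0.091 and Bdkrb2 0.12. Ptger2 gave -0.0032 with RLE size factors and -0.0012 with DESeq2. With a male left out, Ptger1 ranged from -0.70 to 0.068, Ptger2 from -0.35 to 0.56 and Bdkrb2 from -0.51 to 0.080. None of these sign changes was of a called value.

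By deposited CPM, in the P2-mouse pair alone and in the embryo pair alone, 7, 6 and 6 of the 10 receptors took another place in the order of levels, and Ptgir, Ptgdr and Bdkrb1 kept theirs. No paired analysis was made, because no pairing of libraries was known, and the replicate letter A shared by female A and male A was not taken as one. Low counts limit Tbxa2r (7 to 19 counts) and Bdkrb1 (0 to 4 counts).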

Other observations

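Gnas stood far below the other G protein alpha subunit genes. Its level was 0.290 RPKM in female A and 0.406 RPKM in male A, against 0.142 RPKM in male B and 0.154 RPKM in male C. The Gi alpha genes Gnai1, Gnai2 and Gnai3 had means of 23.3, 47.5 and 69.6 RPKM over the 4 libraries, Gna11 34.2 RPKM and the Gq alpha gene Gnaq 200.3 RPKM. Of the exon bases of Gnas, 22% overlap other genes, and 18.6% of its 50-base words occur in other annotated transcripts. The part of either in its level was not tested.

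Markers of mast cells, a known source of prostaglandin D2, divided the libraries in another way than the pairs or the sexes. Cma1, a chymase gene, had 1 count in female A and 72 in male A, against 43 in male B and 2 in male C. Tpsb2, a tryptase gene, had 0 counts in female A and 50 in male A, against 46 in male B and 0 in male C. Cpa3, the mast cell carboxypeptidase gene, had 25, 64, 36 and 23 counts in the same libraries. In the same libraries Ptgdr stood at 14.1, 23.8, 14.0 and 20.8 CPM. Male A was the highest library for Ptgdr and for each of these markers. Male B came next for each marker, but stood level with female A at the low end for Ptgdr. Male C, with 2 and 0 counts of Cma1 and Tpsb2, was second for Ptgdr. Any part of these cells in the Ptgdr values was not tested.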
